A study of Rattus rattus with 6 samples.

Results

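The genes described are Slc2a1, Slc2a4 and Hk2, 3 of the 23976 genes in a table of transcript abundances from rat left ventricle. They were chosen by Ensembl identifier, ENSRNOG00000007284 for Slc2a1, ENSRNOG00000017226 for Slc2a4 and ENSRNOG00000006116 for Hk2, with earlier results of these data known. No measured value enters the rule. The pairing of symbol and identifier came with that choice. A RefSeq table of 32100 Rattus rattus genes (assembly Rrattus_CSIRO_v1) lists the 3 symbols but holds 0 of the 23976 Ensembl identifiers, so it gave no other symbol for any of them and no gene was dropped. The animals were male Wistar-Kyoto rats of wild type genotype without treatment, an inbred strain kept as the normotensive counterpart of the spontaneously hypertensive rat. There were 3 libraries from young adults aged 3 months and 3 from old adults aged 24 months, made from total RNA depleted of ribosomal RNA. The young libraries are named by replicate number and the old ones OH1, OH2 and OH5, as their columns are. Rattus rattus is the species on the labels, but both the strain and the genome build mRatBN7.2 are of Rattus norvegicus. Without symbols for the other identifiers, the tissue could not be checked against marker genes here.

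Glucose enters a heart muscle cell through transporters of the SLC2 family and is then phosphorylated by hexokinase, which traps it in the cell. Slc2a1 encodes GLUT1, the transporter of basal uptake, found on many cell types including endothelium and red cell precursors. Slc2a4 encodes GLUT4, the insulin-responsive transporter of muscle and fat, which is held in vesicles inside the cell and moved to the surface by insulin and by contraction. Hk2 encodes hexokinase 2, the hexokinase isoform characteristic of insulin-sensitive tissue, which can bind to the outer mitochondrial membrane. The fetal heart relies more on GLUT1 and the adult heart more on GLUT4, so the balance of the 2 transporters is commonly read together with their levels. The comparison asks whether these levels, and the Slc2a4 to Slc2a1 ratio, differed between old and young ventricle.

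Levels are in TPM, a unit of transcript abundance that accounts for transcript length and has a fixed sum in each library. The 15 genes with a mean of 1000 TPM or more over the 6 libraries took up most of that sum, and what they left to all other genes differed between libraries. That remainder was 6.39%, 10.6% and 10.5% of TPM in young replicates 1, 2 and 3, and 5.84%, 6.05% and 5.08% in OH1, OH2 and OH5. Young replicate 1 thus lay just above the old libraries on this measure and apart from the other young ones. Each level is therefore given as deposited and after leaving out the 15 genes and bringing the rest to a sum of 1000000 (rescaled TPM). Ratios between members within a library are the same on both scales. The tissue is a mixture of cell types, so fewer cells of a type and less RNA per cell cannot be told apart.

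On deposited TPM all 3 genes were lower in every old library than in any young one. Slc2a4 and Hk2 passed the test as lower, though Hk2 had entered it only through its young libraries. After rescaling, the groups overlapped for each of the 3 genes and none passed the test. Slc2a4 stood above the other 2 genes in all 6 libraries on either scale, and its ratio to Slc2a1 overlapped between the ages.

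**Figure D1:**
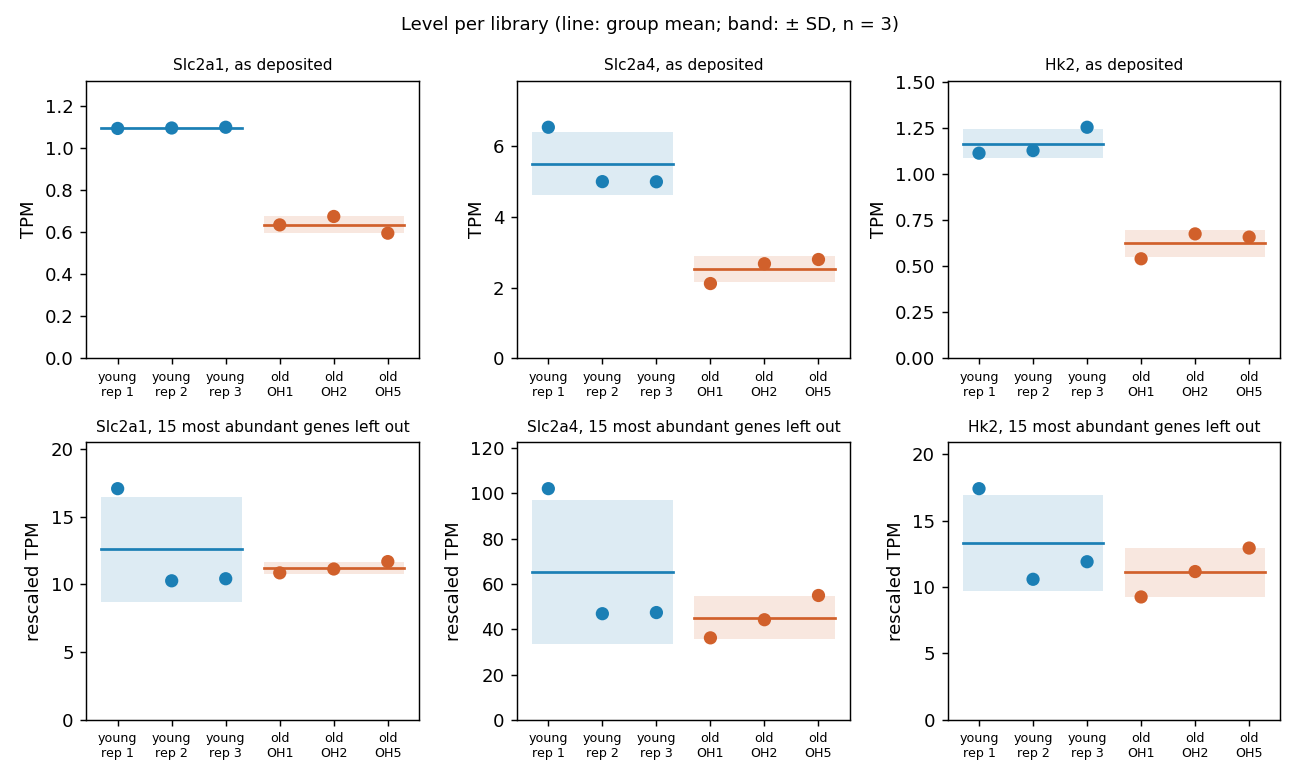
Level of Slc2a1, Slc2a4 and Hk2 in each library, in TPM as deposited (top row) and in rescaled TPM (bottom row); points are libraries, lines are group means and bands are ± SD (n = 3). In the top row all old points lie below all young points, and in the bottom row young replicate 1 lies above the other 5 libraries for each gene. For Slc2a1 the old points lie between it and young replicates 2 and 3.

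Slc2a4, the insulin-responsive transporter, was at 6.52 TPM in young replicate 1, 4.99 in young replicate 2 and 4.99 in young replicate 3, and at 2.11 in OH1, 2.67 in OH2 and 2.79 in OH5. The lowest young library was well above the highest old one. The means were 5.50 ± 0.887 TPM in young and 2.53 ± 0.363 in old (SD, n = 3), so the old level was 45.9% of the young. On the log2(TPM + 1) scale Slc2a4 fell by 0.88 ± 0.24 (SE) with age, with a limma adjusted p of 0.00594 over 9502 tested genes. With a pseudocount of 0.1 the same fit gave -1.09 ± 0.29 and a limma adjusted p of 0.00615.

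Hk2, which phosphorylates the glucose once inside, was at 1.11, 1.13 and 1.25 TPM in young replicates 1, 2 and 3 and at 0.540, 0.675 and 0.658 TPM in OH1, OH2 and OH5. The groups did not overlap. The means were 1.16 ± 0.0774 TPM in young and 0.624 ± 0.0735 in old (SD, n = 3), an old level of 53.6% of the young. Hk2 fell by 0.41 ± 0.16 (SE) on the log2(TPM + 1) scale, with a limma adjusted p of 0.0335. It reached the 1 TPM asked for to enter the fit only in the young libraries, so its selection favoured a fall. The pseudocount of 1 TPM is about the size of the value itself here, and with a pseudocount of 0.1 the same fit gave -0.81 ± 0.31 and a limma adjusted p of 0.0336.

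Slc2a1, the basal transporter, was at 1.09, 1.09 and 1.10 TPM in young replicates 1, 2 and 3 and at 0.634, 0.674 and 0.594 TPM in OH1, OH2 and OH5. These groups did not overlap either, and the 3 young values were nearly identical. The means were 1.09 ± 0.00283 TPM in young and 0.634 ± 0.0397 in old (SD, n = 3), an old level of 57.9% of the young. The log2 fold change on the log2(TPM + 1) scale was -0.36 ± 0.16 (SE), with a 95% interval of -0.68 to -0.04 and a limma adjusted p of 0.0542, which missed the threshold of 0.05. With a pseudocount of 0.1 it was -0.70 ± 0.31, with a limma adjusted p of 0.0540. The SE of this fit rests mostly on a spread shared across all genes (91.8 prior degrees of freedom) and little on the 6 values of a single gene.

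A fall on the deposited scale was common to a large part of the table. Of the 9502 tested genes, 46.8% passed the threshold as lower in old and 0.884% as higher. Groups did not overlap, with old lower, for 54.2% of them. The 2 members called of 3, and the 3 of 3 without overlap, stand beside those shares. Slc2a1 and Hk2 entered the fit, which asked for 1 TPM in at least 3 libraries, only through the 3 young libraries, since 0 old libraries reached 1 TPM. A difference in that direction was therefore built into their selection. With the filter set instead on a mean of 0.5 TPM over all 6 libraries, chosen after seeing the data, the limma adjusted p was 0.0531 for Slc2a1, 0.0338 for Hk2 and 0.00825 for Slc2a4. The rescaled fit used the same filter of 1 deposited TPM, so Slc2a1 and Hk2 entered it in the same way.

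The calls on the deposited scale also depended on single libraries. Hk2 missed the threshold in 5 of the 6 fits that left out 1 library, all but the one without young replicate 1, with limma adjusted p from 0.00173 to 0.154 over the 6. Slc2a4 missed it in 3 of 6, those without OH1, OH2 or OH5 (limma adjusted p 0.0919, 0.0527 and 0.0549, from 0.000179 over the 6). Slc2a1 passed without young replicate 1 (limma adjusted p 0.00447) and in none of the other 5 fits (up to 0.205). Over the 6 fits the log2 fold change of Hk2 stayed between -0.44 and -0.38, and that of Slc2a4 between -0.93 and -0.77. The share of all tested genes that passed moved with the library left out. It was 93.2% without young replicate 1, and 7.06%, 8.82%, 5.27%, 7.39% and 4.08% without young replicate 2, young replicate 3, OH1, OH2 and OH5. The direction was the same in every one of these fits, which groups without overlap make certain.

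After rescaling, Slc2a4 was at 102.1, 46.9 and 47.4 rescaled TPM in young replicates 1, 2 and 3 and at 36.2, 44.2 and 54.9 in OH1, OH2 and OH5. OH5 lay above young replicates 2 and 3, and young replicate 1 stood far above all other libraries. The means were 65.4 ± 31.7 in young and 45.1 ± 9.39 in old (SD, n = 3). The log2 fold change was -0.45 ± 0.30 (SE), with a 95% interval of -1.13 to 0.23 and a limma adjusted p of 0.404 over 9487 genes. That interval reaches from a larger fall than the deposited-scale value to a small rise.

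Hk2 was at 17.4, 10.6 and 11.9 rescaled TPM in young replicates 1, 2 and 3 and at 9.26, 11.2 and 12.9 in OH1, OH2 and OH5. OH5 exceeded 2 of the young libraries and OH2 exceeded 1. The means were 13.3 ± 3.62 and 11.1 ± 1.84 (SD, n = 3), with a log2 fold change of -0.22 ± 0.23 (SE, 95% interval -0.75 to 0.31, limma adjusted p 0.612).

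Slc2a1 was at 17.1, 10.3 and 10.4 rescaled TPM in young replicates 1, 2 and 3 and at 10.9, 11.1 and 11.7 in OH1, OH2 and OH5. All old libraries lay between young replicate 1 and the other 2 young libraries. The means were 12.6 ± 3.89 and 11.2 ± 0.424 (SD, n = 3), with a log2 fold change of -0.12 ± 0.23 (SE, 95% interval -0.64 to 0.40, limma adjusted p 0.803). The young spread of Slc2a1, a coefficient of variation of 0.259% on deposited TPM, was 30.9% after rescaling.

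By limma, 0 of the 3 members passed after rescaling, where 3.42% of all 9487 tested genes passed as lower and 2.66% as higher in old. At an unadjusted p below 0.05 the number was also 0 of 3, with 23.5% of all genes below that value. The groups overlapped for all 3 members, and did not overlap for 29.7% of tested genes. Without young replicate 1 the log2 fold changes were 0.11 ± 0.17 (SE) for Slc2a1, -0.08 ± 0.17 for Slc2a4 and -0.02 ± 0.21 for Hk2. The rescaled differences of Slc2a4 and Hk2 were thus smaller without that library. That of Slc2a1 changed sign and kept a similar size.

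**Figure D2:**
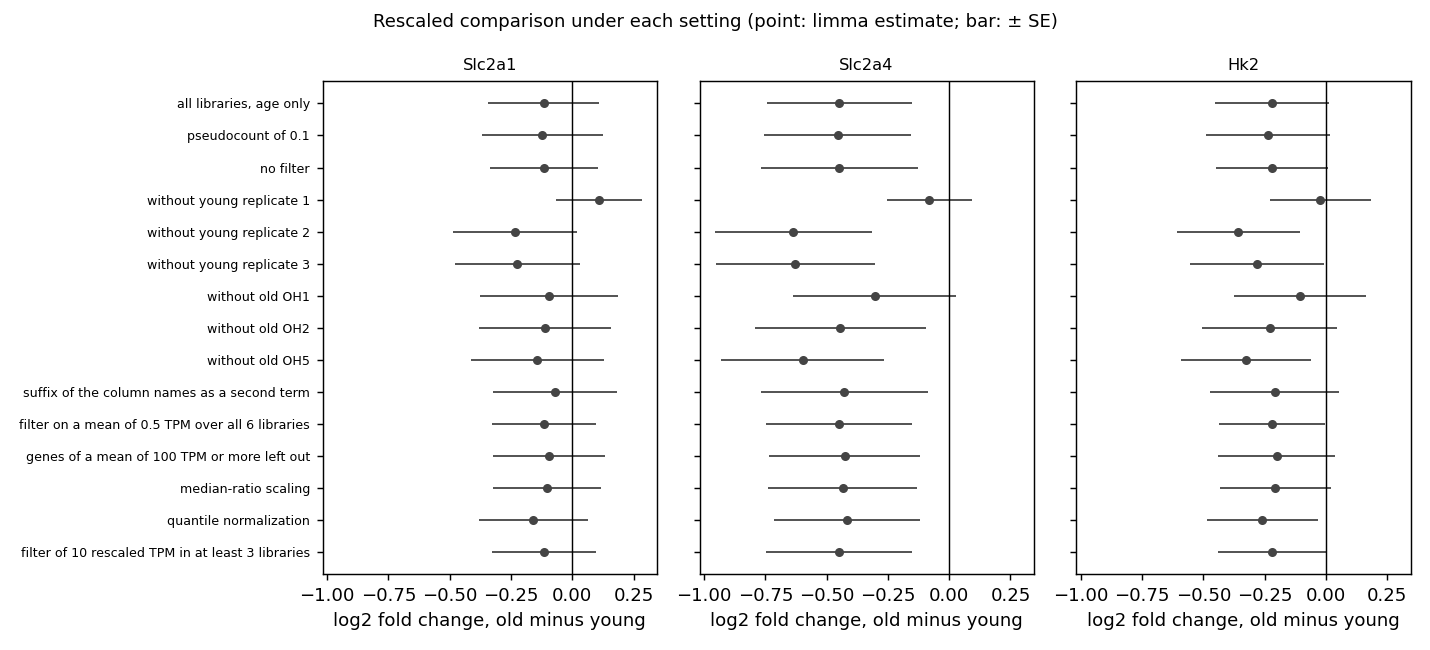
Rescaled log2 fold change (old minus young, x axis) of each member under each setting (y axis), with points for the limma estimate and bars for ± SE. Slc2a4 lies at -0.64 without young replicate 2 and at -0.08 without young replicate 1, and Slc2a1 is above 0 only without young replicate 1.

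The column names end in _1 for young replicates 1 and 3 and OH1, and in _2 for young replicate 2, OH2 and OH5, with no stated meaning. Within the libraries ending in _1 the rescaled log2 difference (old minus young) was -0.28 for Slc2a1, -0.92 for Slc2a4 and -0.59 for Hk2. Within those ending in _2 it was 0.14, 0.07 and 0.17 in the same order. The sign differed between the 2 suffixes for all 3 genes, with 1 or 2 libraries per age in each. The _1 libraries include young replicate 1, which held the highest rescaled level of each gene. The other young library ending in _1, young replicate 3, was at 10.4 rescaled TPM for Slc2a1, against 10.9 in OH1. For Slc2a4 these 2 libraries were at 47.4 and 36.2, and for Hk2 at 11.9 and 9.26. The part of young replicate 1 in the difference between suffixes was not tested. An interaction of age and suffix, a test chosen after seeing the data, left 2 residual degrees of freedom. The rescaled difference between suffixes (_2 minus _1) was 0.42 ± 0.56 (SE) for Slc2a1, 0.996 ± 0.61 for Slc2a4 and 0.76 ± 0.52 for Hk2. None passed, with unadjusted limma p of 0.481, 0.150 and 0.194 and a limma adjusted p of 0.999 for each. The 95% interval for Slc2a4 ran from -0.48 to 2.47, so a large difference is not excluded. On deposited TPM the differences were -0.36, -1.11 and -0.50 within _1 and -0.36, -0.68 and -0.35 within _2, all lower in old. With the suffix as a second term, deposited TPM gave a limma adjusted p of 0.0360 for Slc2a4, 0.0823 for Hk2 and 0.116 for Slc2a1.

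Set against all tested genes with all 6 libraries, Slc2a4 was on the low side on both scales. Its log2 fold change was 0.35 below the median of all tested genes (-0.53) on deposited TPM and 0.41 below the median (-0.04) after rescaling. Lower values than that of Slc2a4 were held by 9.03% of tested genes on the deposited scale and by 8.44% after rescaling. Without young replicate 1 the distance from the median was much smaller. Slc2a4 was then at -0.77 against a median of -0.72 on deposited TPM, and at -0.08 against -0.03 after rescaling. With all 6 libraries, Slc2a1 and Hk2 lay closer to the middle. After rescaling 38.0% of genes were lower than Slc2a1 and 24.5% lower than Hk2. On deposited TPM with a pseudocount of 1 they lay above the median, by 0.18 and 0.12. With a pseudocount of 0.1, they lay 0.02 and 0.13 below it. These positions describe the 3 genes and carry no test.

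**Figure D3:**
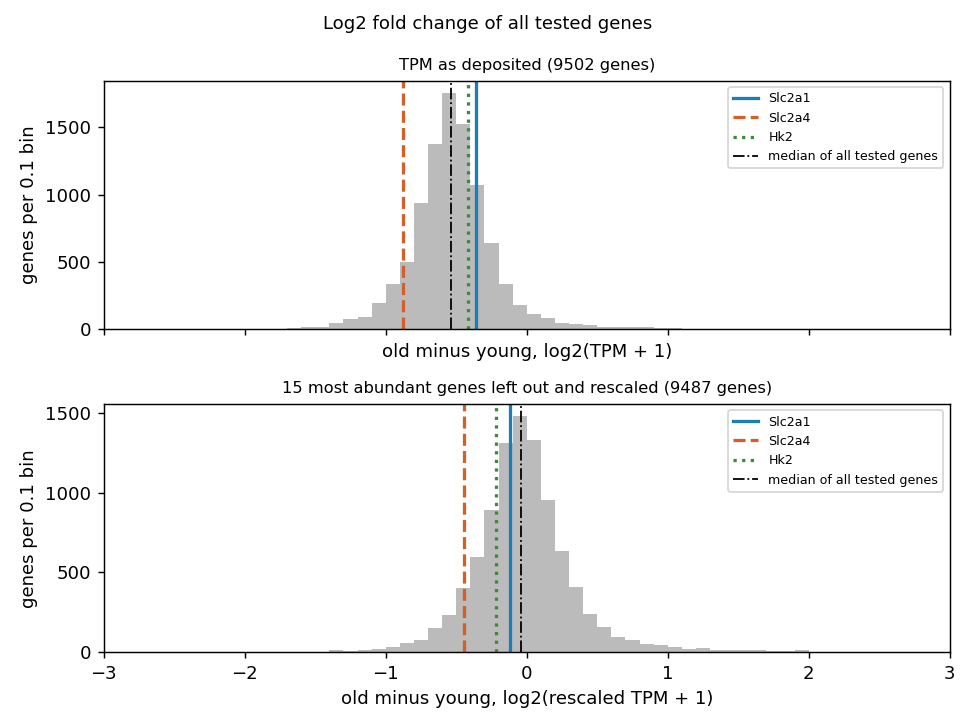
Number of tested genes per bin of 0.1 (y axis) by log2 fold change, old minus young (x axis), on the deposited scale (top) and after rescaling (bottom); vertical lines mark the 3 members and the median of all tested genes. Slc2a4 lies left of the median in both panels, and the median itself moves from -0.53 to -0.04.

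The place of each gene in the order of all genes of a library does not change with the scaling. Slc2a4 ranked 2293, 4795 and 4969 from the highest in young replicates 1, 2 and 3, and 5980, 5062 and 4240 in OH1, OH2 and OH5. OH5 ranked it higher than young replicates 2 and 3 did, so the groups overlapped (exact two-sided permutation p = 0.4). Slc2a1 ranked 8788, 10106 and 10306 in young and 10212, 10021 and 10033 in old, and Hk2 8734, 10030 and 9958 in young and 10619, 10013 and 9732 in old. Both overlapped between the ages (exact two-sided permutation p = 0.9 and 0.5). Young replicate 1 held all 3 genes at their highest rank of the 6 libraries, and it also listed the fewest genes above 0, at 15307 against 15761 to 16991 in the other libraries. The part of that difference in the ranks was not tested.

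The Slc2a4 to Slc2a1 ratio, the balance of insulin-responsive to basal transporter transcript, was 5.98, 4.56 and 4.54 in young replicates 1, 2 and 3. In OH1, OH2 and OH5 it was 3.33, 3.97 and 4.70. The old library OH5 exceeded 2 of the 3 young libraries, so the groups overlapped. The means were 5.03 ± 0.822 in young and 4.00 ± 0.682 in old (SD, n = 3). The difference of log2 ratios was -0.33 ± 0.19 (SE), a ratio 1.26-fold higher in young, with an exact two-sided permutation p of 0.3. A comparison of 3 with 3 libraries cannot give less than 0.1, so no ratio could pass 0.05 here. Leaving out 1 library gave -0.20 without young replicate 1, -0.40 without young replicate 2, -0.40 without young replicate 3, -0.21 without OH1, -0.33 without OH2 and -0.46 without OH5. The last had an exact two-sided permutation p of 0.1, the smallest possible with 5 libraries too. With a pseudocount of 0.1 TPM added to both genes the difference was -0.39, and with a pseudocount of 1 TPM it was -0.52. Both had an exact two-sided permutation p of 0.1. The pseudocount of 1 TPM is about the size of Slc2a1 itself. Unlike the plain ratio, the values with a pseudocount depend on the deposited scale. Without a pseudocount the difference was -0.64 within the libraries ending in _1 and -0.08 within those ending in _2. As a share of the 2 transporters' summed TPM, Slc2a4 made up 83.2% ± 2.12 in young and 79.7% ± 2.76 in old ventricle (SD, n = 3), with an exact two-sided permutation p of 0.3.

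The Hk2 to Slc2a4 ratio was 0.171, 0.226 and 0.251 in young replicates 1, 2 and 3 and 0.256, 0.253 and 0.236 in OH1, OH2 and OH5. OH1 and OH2 lay above all young libraries, while OH5 lay among them. The means were 0.216 ± 0.0413 for young and 0.248 ± 0.0108 for old libraries (SD, n = 3), with an exact two-sided permutation p of 0.2. The difference of log2 ratios was 0.22 ± 0.17 (SE) and, with 1 library left out, between 0.06 without young replicate 1 and 0.34 without young replicate 3. It was 0.30 within the libraries ending in _1 and 0.11 within those ending in _2.

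The Hk2 to Slc2a1 ratio stayed near 1 in both groups, at 1.02, 1.03 and 1.14 in young replicates 1, 2 and 3 and at 0.853, 1.002 and 1.11 in OH1, OH2 and OH5. The groups overlapped, with means of 1.06 ± 0.0680 and 0.987 ± 0.128 (SD, n = 3) and an exact two-sided permutation p of 0.4. The difference of log2 ratios was -0.11 ± 0.12 (SE), and -0.34 within _1 against 0.03 within _2. It was -0.01 without OH1, -0.06 without young replicate 3 and -0.20 without OH5, and stayed below 0 in all 6 comparisons that left out 1 library. In TPM, Slc2a4 was thus first of the 3 genes by at least 3.33 times in every library. Hk2 lay above Slc2a1 in every library but OH1, though in OH2 only barely. These 3 ratios were the only ones compared.

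**Figure D4:**
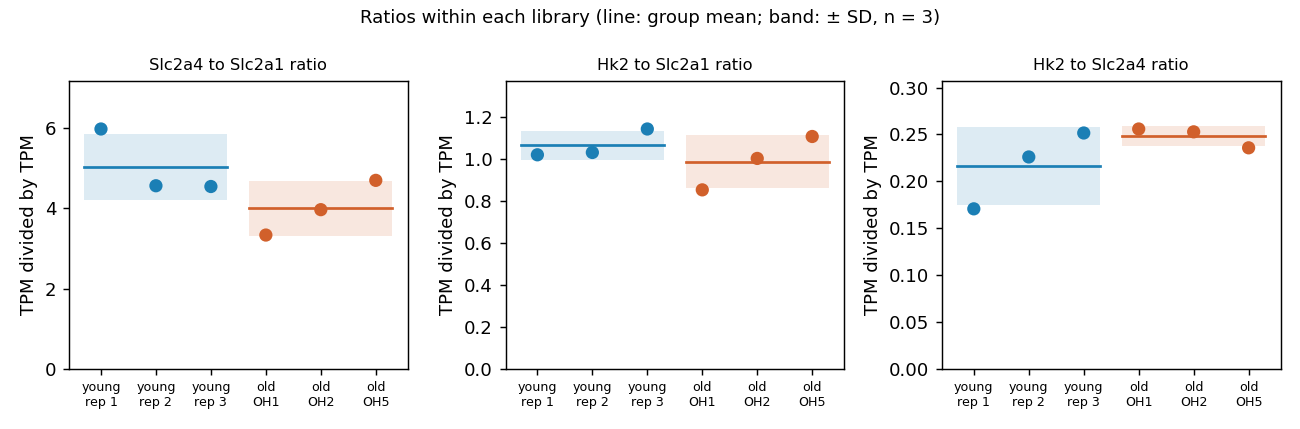
Ratio of TPM values within each library for the 3 pairs of genes (y axis, no unit; x axis, library), with lines for group means and bands for ± SD (n = 3). The Slc2a4 to Slc2a1 ratio runs from 3.33 in OH1 to 5.98 in young replicate 1, and the 2 age groups overlap in each panel.

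Transcripts for the 2 transporters together came to 6.59 ± 0.885 TPM in young and 3.16 ± 0.358 in old, and to 78.0 ± 35.6 and 56.3 ± 9.81 rescaled TPM (SD, n = 3). Hk2 transcript per unit of summed transporter transcript was 0.179 ± 0.0305 in young and 0.198 ± 0.00384 in old ventricle (SD, n = 3), with an exact two-sided permutation p of 0.5. The old libraries were close together on this measure, at 0.194 to 0.202, whereas the young ones spread from 0.146 to 0.206.

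The profile of Hk2 over the 6 libraries was closer to that of Slc2a4 than to that of Slc2a1. On log2(rescaled TPM + 1), Pearson's r of Hk2 was 0.98 with Slc2a4 and 0.88 with Slc2a1, and that of the 2 transporters with each other was 0.93. Of 9486 other tested genes, 15 had a higher r with Hk2 than Slc2a4 did, and 45 (0.474%) reached 0.95. The corresponding numbers at 0.95 were 93 genes (0.980%) for Slc2a4 and 84 (0.886%) for Slc2a1. None of these genes can be named, since their identifiers have no symbol in the table used here. The 6 points share the high values of young replicate 1. Without it, r was 0.94 between Hk2 and Slc2a4, 0.43 between Hk2 and Slc2a1 and 0.32 between the transporters. These values describe 6 or 5 libraries and carry no test.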

How the data were processed

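The authors deposited TPM per gene for 6 libraries, each column summing to 1000000, made with Salmon and the genome build mRatBN7.2 per the submitters' processing notes. Not given in the sources used here are its version, the annotation and the way transcripts were summed per gene. TPM keeps no read depth, so no counting interval or floor was given. All 6 columns were used. Young columns were matched to samples by individual number. Old columns were assigned only to their group, since of their numbers only that of OH5 occurs among the old individuals.

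The main test was limma-trend (limma 3.58.1, R 4.3.3) on log2(TPM + 1), modelling age alone, over the 9502 genes that reached 1 TPM in 3 or more libraries, with Benjamini-Hochberg adjustment over all of them and a threshold of 0.05. It was repeated after leaving out the 15 genes with a mean of 1000 TPM or more and rescaling (9487 genes). The fit was tested on simulated data drawn from the rescaled values only, gene by gene, which hold no shift of a whole library. Ratios of TPM used no pseudocount and an exact permutation test over libraries. Alternatives were another pseudocount, no filter (genes above 0 in at least 1 library), other filters, other scalings, the column suffix as a term, and leaving out each library. The named genes were the 3 members and, where symbols could be attached, 39 genes of glucose handling, 19 of insulin signalling and GLUT4 traffic, cell type markers and the 2 genes most like each member. No symbols could be attached to them, so these were not analysed here. The members, lists and settings were chosen with earlier results of these data known.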

Additional observations from a re-analysis of the deposited data

How the results depend on the processing

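No alternative turned a member's direction on the deposited scale. There, the call of Slc2a4 (-0.88) was lost without a filter (limma adjusted p 0.0509, 0.00615 to 0.0509 over the alternatives that kept all libraries), and leaving out 1 library gave -0.93 to -0.77. The call of Hk2 (-0.41) was lost without a filter (limma adjusted p 0.0562) and when the column suffix was modelled (-0.43, limma adjusted p 0.0823), from 0.0336 over the alternatives that kept all libraries. Leaving out 1 library gave -0.44 to -0.38 for Hk2, and -0.38 to -0.34 for Slc2a1. After rescaling, leaving out 1 library gave -0.23 to 0.11 for Slc2a1, -0.64 to -0.08 for Slc2a4 and -0.36 to -0.02 for Hk2. Of 42 alternative values of the 3 members, 41 kept direction and side of the threshold. That count says little about stability, since no value came near the threshold (limma adjusted p of 0.274 or more). The Hk2 to Slc2a4 difference of 0.22 was 0.46 with a pseudocount of 1, which is close to the level of Hk2 itself. The number of genes called was 4533 on deposited TPM, with 84 higher and 4449 lower, and 576 after rescaling, with 252 higher and 324 lower. Without a filter it was 3 and 334, with the suffix as a term 1385 and 174, and with 1 library left out 388 to 8857 and 67 to 453. No paired analysis was possible by replicate number, because the old columns carry no replicate number of the old samples. The sample labels name no pairs of young and old animals, and the groups were compared as independent. Depth is unknown, so what it limits cannot be stated.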

Other observations

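The evenness of Slc2a1 in young ventricle was singled out after its values were seen. On deposited TPM its coefficient of variation over the 3 young libraries was 0.259%, and 0 of the 9502 tested genes had a smaller one. In the same libraries the part of TPM outside the 15 most abundant genes ran from 6.39% to 10.6%. After rescaling, the coefficient of variation of Slc2a1 was 30.9%, and 92.1% of tested genes had a smaller one. In old ventricle it was 6.26% on deposited TPM and 3.77% after rescaling. Slc2a4 had 16.1% and 48.5% in young ventricle, and 14.4% and 20.8% in old, in the same order.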
